A study of Homo sapiens with 19 samples.

Results

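Polycomb repressive complex 2 (PRC2) was followed at the transcript level through its 10 core and accessory subunits, taken by gene symbol and not by any measured value. The core subunits were EZH1, EZH2, SUZ12, EED, RBBP4 and RBBP7, and the accessory subunits were JARID2, AEBP2, MTF2 and PHF19. All 10 were present among the 34825 gene symbols of both expression tables, and all 10 passed the filter on low values in each table (10 or more normalized counts on average over its libraries).

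PRC2 places methyl groups on lysine 27 of histone H3, and trimethylation of that lysine marks genes that are kept silent. EZH2, or its relative EZH1, is the methyltransferase, SUZ12 holds the complex together, EED binds the finished mark and stimulates the enzyme, and RBBP4 and RBBP7 are histone-binding WD40 proteins that also serve in other chromatin complexes. The core joins either a Polycomb-like protein (PHF1, MTF2 or PHF19), giving the form called PRC2.1, or JARID2 and AEBP2, giving the form called PRC2.2. EZH2 is raised in many cancers of the liver, and its messenger RNA is known to follow cell division. EPZ-6438 (tazemetostat) is an inhibitor of the catalytic activity of EZH2. INO80 is the ATPase of a chromatin remodelling complex, MCRS1 is a subunit of that complex, and YY1 is a DNA-binding subunit of it.

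The data were mRNA-seq libraries from HepG2, a human liver cancer cell line, in 2 experiments that were normalized separately, so that levels were compared only within an experiment. In the first, cells were transfected with a non-targeting control siRNA (NTG) at 50 nM, or at the same dose with one of a pair of siRNAs that target INO80 (siINO80#1 and siINO80#2), with 3 libraries a group. In the second, cells were kept in DMSO or in 1 uM EPZ-6438 from 3 days before transfection and received 50 nM of NTG or of a single siRNA against MCRS1 (siMCRS1). It held 2 libraries of DMSO with NTG, 3 of DMSO with siMCRS1, 3 of EPZ-6438 with NTG and 2 of EPZ-6438 with siMCRS1. All libraries were made 72 h after transfection. With a single siRNA for MCRS1, the loss of MCRS1 and any other action of that siRNA cannot be told apart. The labels do not say that replicates were separate cultures, so p-values measure only the spread between these libraries.

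Depth, taken as the sum of whole counts over genes, ran from 17093574 to 25369547 for the INO80 libraries, and from 26038505 to 47397233 for the MCRS1 libraries. INO80 itself fell from 1264 ± 82.2 normalized counts (SD, n = 3) with NTG to 608 ± 31.3 with siINO80#1 and 460 ± 21.7 with siINO80#2, and MCRS1 fell by 3.66 on the log2 scale both in DMSO and in EPZ-6438. The transcript of INO80 was also called lower with siMCRS1 by limma, with log2 fold changes of -0.27 in DMSO and -0.35 in EPZ-6438. The hepatocyte markers ALB and AFP were abundant in every library, and 7 of 7 HepG2 markers were expressed. Of the 5 markers of other cell types, PTPRC, which defines leukocytes, had 9.70 to 35.9 normalized counts, whereas CD68 had 579 to 1597. One library stood apart, siINO80#2 C, with 17.7% of reads from mitochondrially encoded genes against 7.93 to 9.21% in the other 8 libraries of its experiment. Values without it are given for some of the results that use it. In bulk RNA, fewer cells of a type and less RNA per cell cannot be told apart.

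Within the NTG libraries of the INO80 experiment, levels per kilobase of transcript ran over a wide range. Each level was divided by the length of 1 annotated transcript per gene, so the order depends on the transcript assumed. RBBP4 had more normalized counts than RBBP7 (3212 against 2117), but its assumed transcript is longer (7883 against 2281 bases). The SDs below cover only the spread between libraries. RBBP7 was highest at 928 ± 29.1 normalized counts per kilobase (SD, n = 3), followed by RBBP4 at 407 ± 3.47, SUZ12 at 380 ± 1.76, EZH2 at 292 ± 24.4 and EED at 170 ± 10.0. The accessory subunits lay below the core subunits other than EZH1, with MTF2 at 150.1 ± 1.38, JARID2 at 149.9 ± 7.03, PHF19 at 131 ± 8.67 and AEBP2 at 105 ± 11.7. EZH1 was lowest at 78.2 ± 5.41 normalized counts per kilobase. The only neighbours in this order whose libraries overlapped were MTF2 and JARID2. In DMSO with NTG, RBBP7 was again highest (2060 normalized counts per kilobase) and EZH1 lowest (117), while SUZ12 (881) and RBBP4 (863) overlapped, as did MTF2 (351) with PHF19 (327), PHF19 with AEBP2 (257), and AEBP2 with JARID2 (233).

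Promoter sequences were examined because E2F factors, which drive genes of the cell cycle, are known regulators of EZH2, and because YY1 belongs to the INO80 complex. Promoters, 250 bases before to 50 bases after an annotated start, came from RefSeq on GRCh38.p14 and were present for 10 of 10 members. E2F words (TTTCCCGC, TTTGGCGC, TTTCGCGC or TTTGCCGC) were searched on both strands, as was the YY1 word GCCATNTT. Of the 15 promoters of the members, 6 held an E2F word (1 each for EZH1, EZH2, SUZ12, MTF2, PHF19 and AEBP2), whereas 3.31% of all 35116 promoters and 4.72% of those of tested genes held one. A YY1 word was in 3 of the 15 (1 each for RBBP7, MTF2 and PHF19), against 6.58% of all promoters and 9.11% of those of tested genes. A match is a description of the letters and not evidence of binding. 4 of the promoters are shown, those of the methyltransferase, of SUZ12, and of the 2 Polycomb-like members whose levels moved differently. Each is written 5′ to 3′ on the strand of the gene, with E2F and YY1 words in capitals. EZH2 and PHF19 have 2 annotated promoters each, and the one shown was chosen because it holds a word, the other holding 0 of either kind. The EZH2 promoter shown lies at chr7:148884242-148884541 (minus strand), that of SUZ12 at chr17:31936757-31937056 (plus strand), that of MTF2 at chr1:93079033-93079332 (plus strand) and that of PHF19 at chr9:120877139-120877438 (minus strand).
EZH2: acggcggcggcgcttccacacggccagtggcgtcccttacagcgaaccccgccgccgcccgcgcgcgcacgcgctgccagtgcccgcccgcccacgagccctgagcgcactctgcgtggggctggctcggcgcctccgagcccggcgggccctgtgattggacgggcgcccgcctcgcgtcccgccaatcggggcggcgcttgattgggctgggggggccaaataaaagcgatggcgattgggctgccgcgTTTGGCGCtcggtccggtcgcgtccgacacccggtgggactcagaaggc
SUZ12: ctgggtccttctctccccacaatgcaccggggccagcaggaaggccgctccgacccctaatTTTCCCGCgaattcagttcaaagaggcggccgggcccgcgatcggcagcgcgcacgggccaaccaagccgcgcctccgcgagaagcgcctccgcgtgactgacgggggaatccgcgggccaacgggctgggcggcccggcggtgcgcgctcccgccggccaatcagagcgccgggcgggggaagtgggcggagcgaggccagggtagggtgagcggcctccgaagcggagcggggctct
MTF2: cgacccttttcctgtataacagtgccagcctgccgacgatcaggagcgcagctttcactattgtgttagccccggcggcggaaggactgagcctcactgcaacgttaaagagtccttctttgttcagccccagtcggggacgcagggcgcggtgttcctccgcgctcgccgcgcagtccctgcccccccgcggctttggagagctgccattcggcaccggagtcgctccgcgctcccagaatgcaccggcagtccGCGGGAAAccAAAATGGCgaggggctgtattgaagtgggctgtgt
PHF19: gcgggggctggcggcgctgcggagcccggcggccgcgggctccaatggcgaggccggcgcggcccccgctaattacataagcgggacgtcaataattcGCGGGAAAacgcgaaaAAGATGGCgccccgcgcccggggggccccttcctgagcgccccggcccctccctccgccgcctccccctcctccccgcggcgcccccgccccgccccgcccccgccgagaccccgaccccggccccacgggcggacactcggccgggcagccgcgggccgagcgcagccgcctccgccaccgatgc
The only capitals in EZH2 and SUZ12 are E2F words, whereas MTF2 and PHF19 carry an E2F word followed closely by a YY1 word.

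The first comparison asked how the subunits responded to depletion of INO80. With siINO80#1, the core subunits EZH1, SUZ12, RBBP4 and RBBP7 fell against NTG and the accessory subunits JARID2, MTF2 and PHF19 rose. With siINO80#2, EZH1, EZH2, SUZ12, EED, RBBP7 and PHF19 fell and JARID2 and MTF2 rose. RBBP4 was lower with siINO80#1 than with siINO80#2, and EZH2, SUZ12 and PHF19 were lower with siINO80#2 than with siINO80#1, as direct tests of the siRNAs against each other showed. With siINO80#1, 7 of 10 members passed the threshold (limma on log2(normalized count + 1), Benjamini-Hochberg adjusted p under 0.05 over all genes tested), where 41.6% of the 14034 genes tested did so. Of the members 3 were higher and 4 lower, beside 20.7% and 20.8% of all genes tested. With siINO80#2, 8 of 10 passed, where 55% of the genes tested did so, with 2 members higher and 6 lower beside 26.6% and 28.4% of all genes tested. The median log2 fold change of the members was -0.09 with siINO80#1 and -0.41 with siINO80#2, against a median of 0.00 over all genes tested in both, which equal totals shifted to -0.08 and -0.11. Without siINO80#2 C the members' median with siINO80#2 was -0.28. Of the members 7 then passed (2 higher and 5 lower), where 53.7% of the genes tested did so. Both siRNAs were compared with the same 3 NTG libraries.

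**Figure D1:**
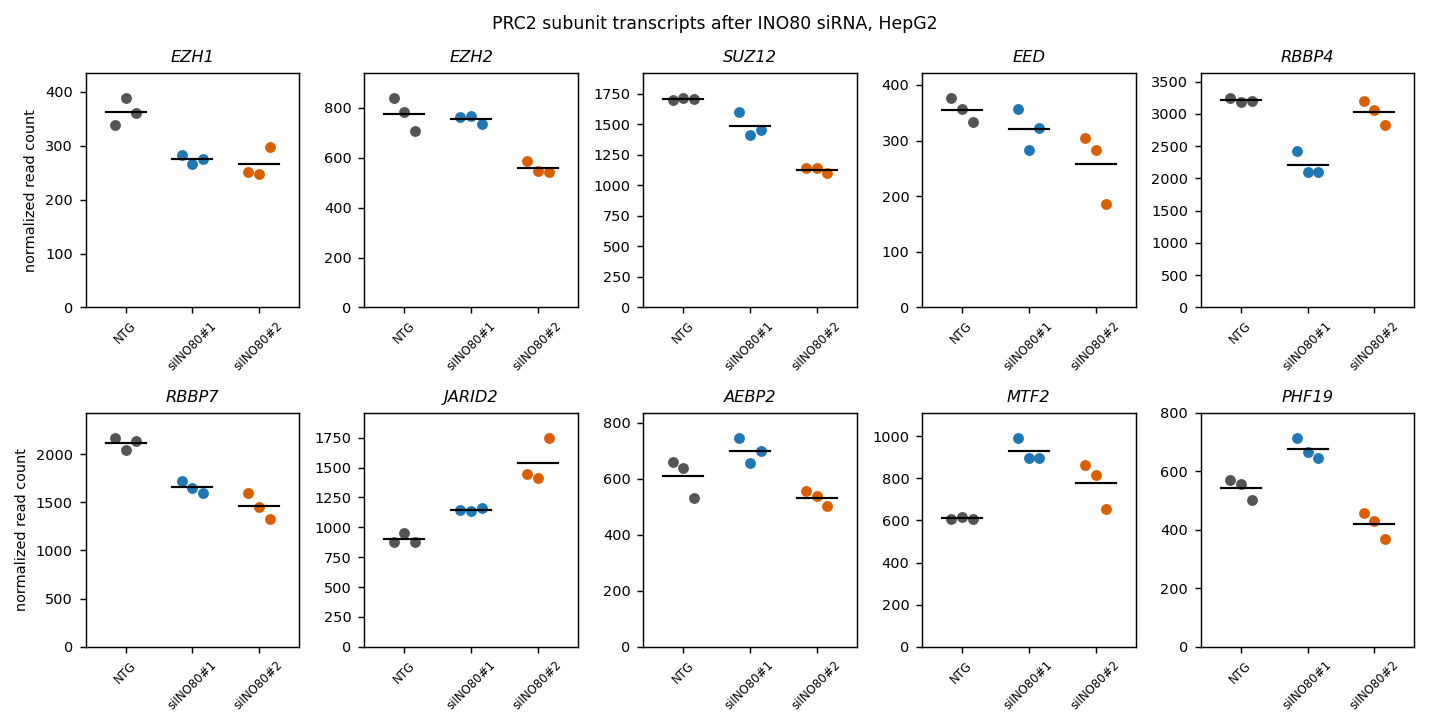
Normalized read counts (vertical axes, from 0) of the 10 PRC2 subunits in the 9 libraries of the INO80 experiment, in groups NTG, siINO80#1 and siINO80#2 (horizontal axes). Points are libraries in the order A, B, C and lines are group means. For SUZ12 the siINO80#2 libraries sit between 1102 and 1143, below the other groups, and for JARID2 they sit between 1409 and 1751, above the other groups.

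EZH2, the main methyltransferase of dividing cells (chr7:148807383-148884291, GRCh38), had 838, 782 and 709 normalized counts in NTG libraries A, B and C. It had 764, 767 and 735 with siINO80#1 and 588, 545 and 544 with siINO80#2. The siINO80#1 values lay inside the range of NTG, while every siINO80#2 library was below every other library. The log2 fold change was -0.04 with siINO80#1 (95% confidence interval -0.21 to 0.14, adjusted p = 0.75) and -0.47 ± 0.08 with siINO80#2 (SE, adjusted p = 0.00055). The siRNAs differed from each other by -0.43 ± 0.08 (siINO80#2 against siINO80#1, adjusted p = 0.0041).

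EZH1, the relative that predominates in cells that no longer divide (chr17:42700275-42745040), had 338, 388 and 361 normalized counts with NTG, 284, 266 and 275 with siINO80#1, and 251, 247 and 299 with siINO80#2. Both treated groups were below all NTG libraries and overlapped each other. EZH1 fell by 0.40 ± 0.10 on the log2 scale with siINO80#1 (SE, adjusted p = 0.01) and by 0.45 ± 0.10 with siINO80#2 (adjusted p = 0.0035). Each of these calls was kept under every alternative that was run.

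SUZ12, the scaffold (chr17:31937007-32001038), had 1698, 1712 and 1710 normalized counts with NTG, 1602, 1416 and 1451 with siINO80#1, and 1143, 1140 and 1102 with siINO80#2. The 3 groups did not overlap. SUZ12 fell by 0.60 ± 0.07 on the log2 scale with siINO80#2 (SE, adjusted p = 2.8e-05). With siINO80#1 it fell by 0.20 ± 0.07 (adjusted p = 0.034), a call that was lost without any 1 of 5 libraries (NTG A, B or C, or siINO80#1 B or C), with values of -0.20 to -0.16 and adjusted p of 0.077 to 0.13. A row for its pseudogene SUZ12P1 held 104 normalized counts in NTG, so the division of reads between these near copies is uncertain.

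EED, the subunit that reads the mark (chr11:86244753-86287615), had 376, 357 and 334 normalized counts with NTG, 356, 284 and 322 with siINO80#1, and 305, 283 and 185 with siINO80#2. The siINO80#2 libraries were below NTG, and the lowest value was that of siINO80#2 C, the library rich in mitochondrial reads. EED fell by 0.49 ± 0.17 on the log2 scale with siINO80#2 (SE, adjusted p = 0.03), but the value was -0.27 without siINO80#2 C (adjusted p = 0.063). Leaving out NTG A, B or C gave -0.45, -0.49 and -0.54 with adjusted p of 0.05 to 0.088, none of which passed. With siINO80#1 the log2 fold change was -0.15 (95% confidence interval -0.53 to 0.23, adjusted p = 0.51).

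The histone-binding pair separated the INO80 siRNAs. RBBP4 (chr1:32651208-32686211) had 3242, 3189 and 3204 normalized counts with NTG, 2422, 2106 and 2107 with siINO80#1, and 3195, 3056 and 2824 with siINO80#2. Every siINO80#1 library was below all others, while siINO80#2 overlapped NTG. RBBP4 fell by 0.54 ± 0.08 on the log2 scale with siINO80#1 (SE, adjusted p = 0.00025), its value with siINO80#2 was -0.09 (95% confidence interval -0.26 to 0.08, adjusted p = 0.35), and siINO80#2 was higher than siINO80#1 by 0.45 ± 0.08 (adjusted p = 0.0024). RBBP7, its close relative (chrX:16844341-16870362), had 2170, 2043 and 2138 normalized counts with NTG, 1723, 1650 and 1593 with siINO80#1, and 1601, 1447 and 1327 with siINO80#2. Both treated groups were below NTG. RBBP7 fell by 0.36 ± 0.08 with siINO80#1 (adjusted p = 0.004) and by 0.54 ± 0.08 with siINO80#2 (adjusted p = 0.00016). By annotated gene span, RBBP7 overlaps TXLNG and RBBP4 overlaps SYNC on the opposite strand, with 657 and 26.4 normalized counts for those neighbours in NTG. Overlap of exons was not examined, and the sources do not state whether counting used the strand.

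JARID2, which recruits and stimulates the PRC2.2 form (chr6:15246069-15522042), had 874, 949 and 877 normalized counts with NTG, 1145, 1140 and 1159 with siINO80#1, and 1447, 1409 and 1751 with siINO80#2. The 3 groups did not overlap, and siINO80#2 C was the highest library. JARID2 rose by 0.35 ± 0.09 on the log2 scale with siINO80#1 (SE, adjusted p = 0.0078) and by 0.77 ± 0.09 with siINO80#2 (adjusted p = 3.3e-05), and the value was 0.67 without siINO80#2 C (adjusted p = 1.6e-05). The other subunit of that form, AEBP2 (chr12:19404072-19522227), had 659, 641 and 533 normalized counts with NTG, 748, 656 and 700 with siINO80#1, and 558, 539 and 502 with siINO80#2. Neither siRNA group separated from NTG, with log2 fold changes of 0.20 and -0.19 (adjusted p = 0.12 for each). After rescaling to equal totals AEBP2 passed as lower with siINO80#2 (-0.30, adjusted p = 0.042), and leaving out 1 of the libraries also gave that call. AEBP2 was lower with siINO80#2 than with siINO80#1 (log2 fold change -0.39 ± 0.10, adjusted p = 0.016), a call that was lost without siINO80#1 A (-0.35, adjusted p = 0.066) or siINO80#1 C (-0.40, adjusted p = 0.05, which did not pass).

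MTF2, a Polycomb-like protein of the PRC2.1 form (chr1:93079283-93139076), had 608, 618 and 609 normalized counts with NTG, 993, 895 and 896 with siINO80#1, and 864, 818 and 654 with siINO80#2. Both treated groups were above NTG, and siINO80#2 C was the lowest treated library. MTF2 rose by 0.60 ± 0.10 on the log2 scale with siINO80#1 (SE, adjusted p = 0.00091) and by 0.34 ± 0.10 with siINO80#2 (adjusted p = 0.016). The siINO80#2 value was 0.46 without siINO80#2 C (adjusted p = 0.00042), and the call was lost without siINO80#2 A (0.26, adjusted p = 0.067) and after rescaling to equal totals (0.23, adjusted p = 0.17).

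PHF19, the other Polycomb-like member (chr9:120855651-120904128), moved in opposite directions with the INO80 siRNAs. It had 571, 557 and 503 normalized counts with NTG, 715, 666 and 646 with siINO80#1, and 459, 432 and 370 with siINO80#2. The 3 groups did not overlap, with NTG in the middle. PHF19 rose by 0.31 ± 0.10 on the log2 scale with siINO80#1 (SE, adjusted p = 0.024) and fell by 0.37 ± 0.10 with siINO80#2 (adjusted p = 0.0074). The difference between the siRNAs was -0.69 ± 0.10 (siINO80#2 against siINO80#1, adjusted p = 0.0011) and was kept under every alternative that was run. The rise with siINO80#1 was lost after rescaling to equal totals (0.23, adjusted p = 0.16) and without NTG C (0.26, adjusted p = 0.095), siINO80#1 A (0.27, adjusted p = 0.086) or siINO80#1 B (0.32, adjusted p = 0.058).

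Compared directly, siINO80#2 and siINO80#1 differed in 6 of 10 members, where 22.1% of the genes tested differed. RBBP4 and JARID2 were higher with siINO80#2, as were 9.48% of the genes tested, and EZH2, SUZ12, PHF19 and AEBP2 were lower, as were 12.6%. INO80 itself was lower with siINO80#2 than with siINO80#1 (log2 fold change -0.40 ± 0.08, adjusted p = 0.0058), and the part of this in the members' differences was not tested.

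The second experiment asked how the subunits responded to depletion of MCRS1 when EZH2 was active or inhibited. MTF2 had the largest fold change among the members, 1.83 in DMSO and 2.15 in EPZ-6438 on the scale of normalized count + 1, and it was the only member whose call in this experiment was kept under every alternative that was run. In DMSO, 4 of 10 members passed the threshold with siMCRS1, where 47.7% of the 14312 genes tested did so, with 2 members higher and 2 lower beside 23.1% and 24.6% of all genes tested. In EPZ-6438, 4 of 10 passed, where 53.7% of the genes tested did so, with 3 members higher and 1 lower beside 26.8% and 26.9% of all genes tested. The median log2 fold change of the members was -0.23 in DMSO and -0.01 in EPZ-6438, beside 0.00 and 0.01 over all genes tested. Rescaling the libraries to equal totals shifted the median of all genes to -0.23 in both treatments and the calls over all genes from 3307 higher and 3523 lower to 1894 and 5098 in DMSO, and from 3839 and 3847 to 2296 and 5313 in EPZ-6438. In DMSO 8 of 10 members then passed, where 48.9% of the genes tested did so, with 1 member higher (MTF2) and 7 lower beside 13.2% and 35.6% of all genes. In EPZ-6438 5 of 10 then passed, where 53.2% of the genes tested did so, with 1 higher (MTF2) and 4 lower (EZH1, EZH2, RBBP4 and RBBP7) beside 16% and 37.1% of all genes. Directions below are therefore relative to the authors' scaling, and the values after equal totals are given where a call changed.

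**Figure D2:**
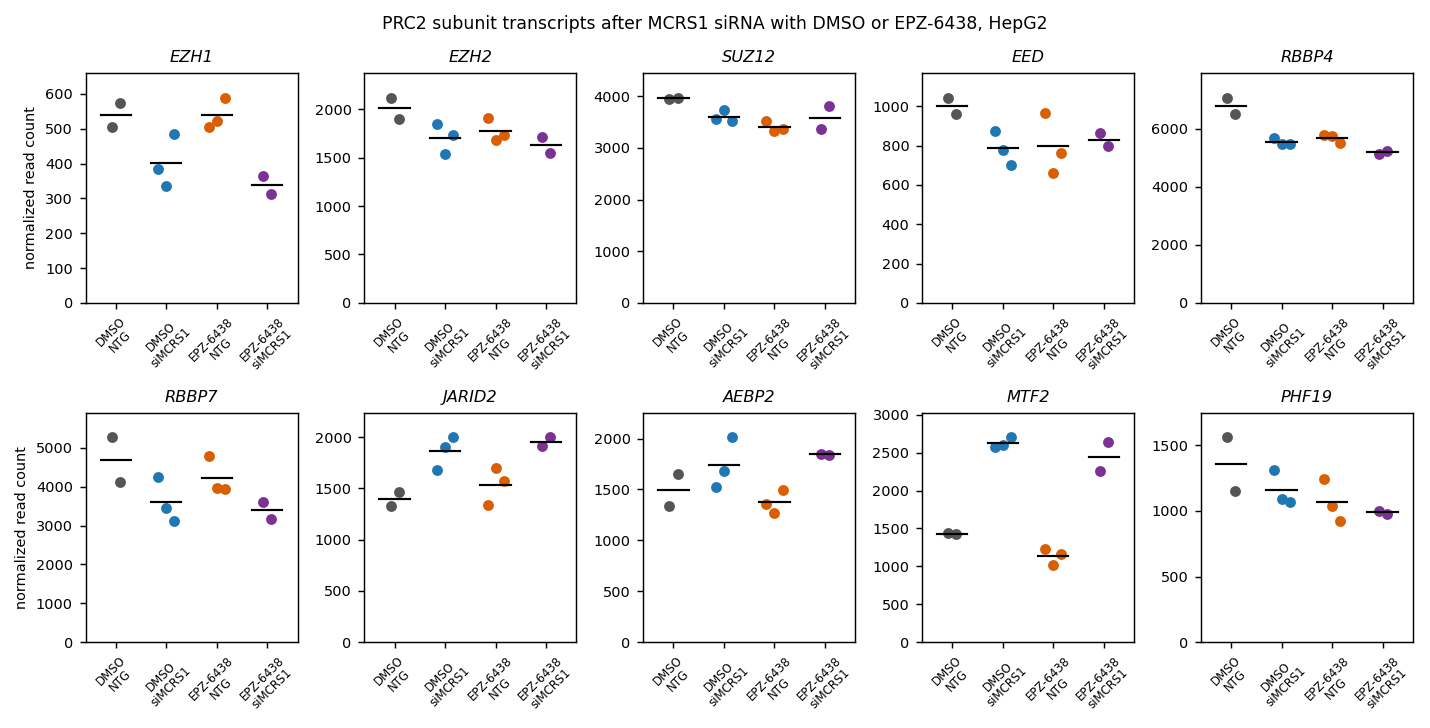
Normalized read counts (vertical axes, from 0) of the 10 PRC2 subunits in the 10 libraries of the MCRS1 experiment, in groups of DMSO or EPZ-6438 with NTG or siMCRS1 (horizontal axes). Points are libraries and lines are group means. The 5 siMCRS1 libraries of MTF2 sit between 2256 and 2704, above the 5 NTG libraries at 1018 to 1440.

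MTF2 had 1440 and 1422 normalized counts in DMSO with NTG, and 2577, 2595 and 2704 in DMSO with siMCRS1. In EPZ-6438 it had 1233, 1018 and 1166 with NTG, and 2256 and 2635 with siMCRS1. No siMCRS1 library overlapped an NTG library. MTF2 rose by 0.87 ± 0.11 on the log2 scale in DMSO (SE, adjusted p = 0.00015) and by 1.10 ± 0.11 in EPZ-6438 (adjusted p = 2.5e-05), and these values were 0.64 (adjusted p = 0.0015) and 0.86 (adjusted p = 0.00018) after rescaling to equal totals. The effect of siMCRS1 did not differ detectably between treatments (interaction 0.23, 95% confidence interval -0.11 to 0.57, adjusted p = 1.0).

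PHF19 had 1563 and 1154 normalized counts in DMSO with NTG, and 1315, 1090 and 1067 with siMCRS1. Libraries of EPZ-6438 held 1247, 1041 and 920 with NTG, and 1002 and 978 with siMCRS1. The groups overlapped in both treatments, with log2 fold changes of -0.22 in DMSO (95% confidence interval -0.58 to 0.14, adjusted p = 0.29) and -0.10 in EPZ-6438 (-0.46 to 0.26, adjusted p = 0.64). After rescaling to equal totals the value in DMSO was -0.46 (adjusted p = 0.037).

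JARID2 had 1330 and 1468 normalized counts in DMSO with NTG, and 1678, 1901 and 2000 with siMCRS1. Under the inhibitor it had 1335, 1697 and 1569 with NTG, and 1915 and 1997 with siMCRS1. In each treatment all siMCRS1 libraries were above the NTG libraries. JARID2 rose by 0.41 ± 0.12 on the log2 scale in DMSO (SE, adjusted p = 0.019) and by 0.36 ± 0.12 in EPZ-6438 (adjusted p = 0.03). After rescaling to equal totals these values were 0.17 (adjusted p = 0.27) and 0.12 (adjusted p = 0.44). In DMSO the call was also lost without NTG 1 (0.34), siMCRS1 2 (0.39) or siMCRS1 3 (0.35), with adjusted p of 0.055 to 0.13, and in EPZ-6438 without NTG 1 (0.26), siMCRS1 A (0.39) or siMCRS1 B (0.33), with adjusted p of 0.079 to 0.15.

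AEBP2 had 1337 and 1657 normalized counts in DMSO with NTG, and 1526, 1682 and 2014 with siMCRS1. In EPZ-6438 libraries it reached 1359, 1272 and 1494 with NTG, and 1851 and 1841 with siMCRS1. The groups overlapped in DMSO and were separate in EPZ-6438. AEBP2 rose by 0.43 ± 0.14 on the log2 scale in EPZ-6438 (SE, adjusted p = 0.023), and its value in DMSO was 0.22 (95% confidence interval -0.09 to 0.52, adjusted p = 0.22). After rescaling to equal totals the values were 0.19 in EPZ-6438 (adjusted p = 0.34) and -0.02 in DMSO. The call in EPZ-6438 was also lost without EPZ-6438 NTG 2 (0.37), siMCRS1 A (0.42) or siMCRS1 B (0.43), with adjusted p of 0.066 to 0.095.

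EZH1 had 506 and 574 normalized counts in DMSO with NTG, and 385, 336 and 484 with siMCRS1. With EPZ-6438 it had 504, 522 and 589 with NTG, and 366 and 312 with siMCRS1. All siMCRS1 libraries were below all NTG libraries in both treatments. EZH1 fell by 0.67 ± 0.17 on the log2 scale in EPZ-6438 (SE, adjusted p = 0.006), a call that was lost without siMCRS1 B (-0.55, adjusted p = 0.067) and under quantile normalization (-0.39, adjusted p = 0.065). In DMSO it fell by 0.44 ± 0.17 with an adjusted p of 0.05 that lay just inside the threshold. This call was lost in 9 of the 10 ways of leaving out a library (values -0.53 to -0.32 and adjusted p of 0.055 to 0.24) and by edgeR (-0.44, adjusted p = 0.053), and the exception was the omission of DMSO siMCRS1 3. Under quantile normalization the value in DMSO was -0.22 (adjusted p = 0.3).

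EZH2, the target of the drug, had 2118 and 1902 normalized counts in DMSO with NTG, and 1849, 1537 and 1738 with siMCRS1. In EPZ-6438 it had 1911, 1677 and 1736 with NTG, and 1711 and 1545 with siMCRS1. The groups overlapped in EPZ-6438 and were narrowly separate in DMSO. The log2 fold change with siMCRS1 was -0.24 in DMSO (95% confidence interval -0.49 to 0.01, adjusted p = 0.11) and -0.12 in EPZ-6438 (-0.37 to 0.13, adjusted p = 0.38). After rescaling to equal totals the values were -0.47 (adjusted p = 0.01) and -0.36 (adjusted p = 0.033).

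SUZ12 had 3947 and 3971 normalized counts in DMSO with NTG, and 3553, 3738 and 3524 with siMCRS1. Libraries of EPZ-6438 held 3522, 3326 and 3370 with NTG, and 3362 and 3809 with siMCRS1. The groups were separate in DMSO and overlapped in EPZ-6438. The log2 fold change was -0.14 in DMSO (adjusted p = 0.23) and 0.07 in EPZ-6438 (adjusted p = 0.53). After rescaling to equal totals the value in DMSO was -0.37 (adjusted p = 0.0055), and the sign in EPZ-6438 turned to -0.17 (adjusted p = 0.14). EED had 1043 and 960 normalized counts in DMSO with NTG, and 872, 780 and 703 with siMCRS1. Under the inhibitor it had 966, 659 and 761 with NTG, and 862 and 797 with siMCRS1. The groups were separate in DMSO and overlapped in EPZ-6438. The log2 fold change of EED was -0.35 in DMSO (adjusted p = 0.089) and 0.08 in EPZ-6438 (adjusted p = 0.71), and after rescaling to equal totals these were -0.59 (adjusted p = 0.014) and -0.16 (adjusted p = 0.46).

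RBBP4 had 7074 and 6533 normalized counts in DMSO with NTG, and 5682, 5467 and 5472 with siMCRS1. In EPZ-6438 libraries it reached 5794, 5770 and 5514 with NTG, and 5149 and 5256 with siMCRS1. The siMCRS1 libraries were below NTG in both treatments. RBBP4 fell by 0.30 ± 0.08 on the log2 scale in DMSO (SE, adjusted p = 0.013), a call that was lost without DMSO NTG 1 (-0.24, adjusted p = 0.12), and its value in EPZ-6438 was -0.13 (95% confidence interval -0.31 to 0.05, adjusted p = 0.21). RBBP7 had 5277 and 4122 normalized counts in DMSO with NTG, and 4240, 3453 and 3111 with siMCRS1. With EPZ-6438 it had 4792, 3978 and 3931 with NTG, and 3612 and 3175 with siMCRS1. The RBBP7 groups overlapped in DMSO and were separate in EPZ-6438. The log2 fold change of RBBP7 was -0.38 in DMSO (adjusted p = 0.062) and -0.32 in EPZ-6438 (adjusted p = 0.11). Under equal totals RBBP4 was lower in EPZ-6438 as well (-0.37, adjusted p = 0.0031) and RBBP7 was lower in both treatments (-0.62 in DMSO, adjusted p = 0.0068, and -0.55 in EPZ-6438, adjusted p = 0.011).

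**Figure D3:**
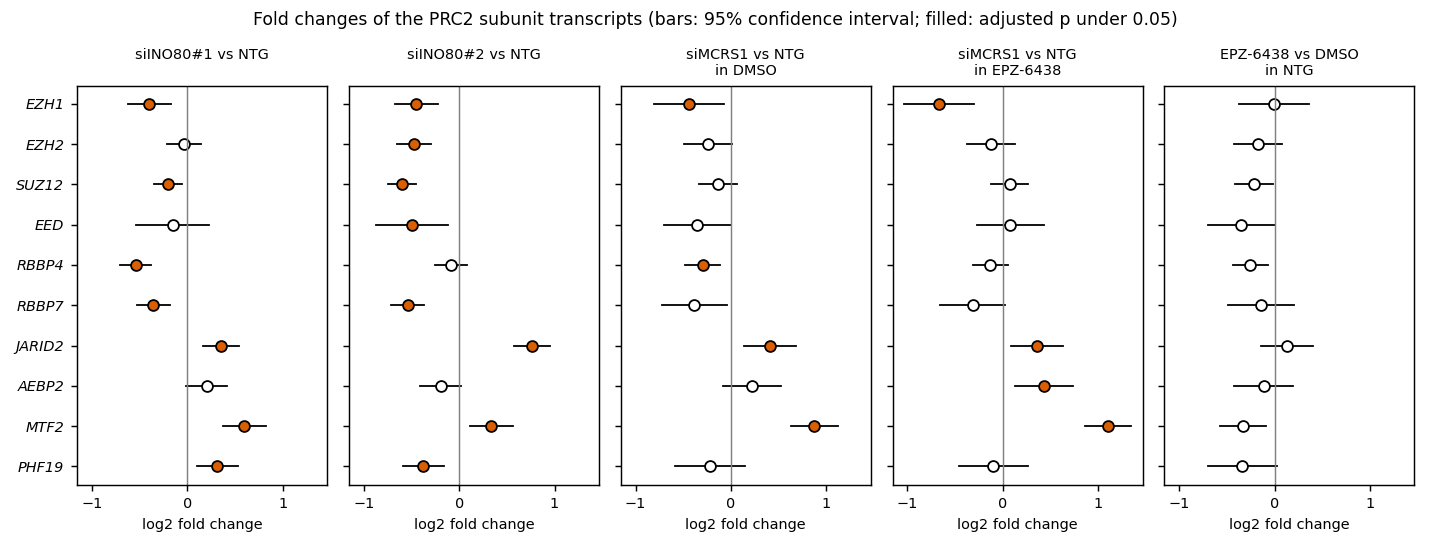
Log2 fold changes (horizontal axes) of the 10 PRC2 subunits (vertical axis) in 5 comparisons, with 95% confidence intervals as bars and filled points for an adjusted p under 0.05. JARID2 and MTF2 lie to the right of 0 in the 4 siRNA panels with filled points, and no point is filled for EPZ-6438 against DMSO.

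EPZ-6438 was compared with DMSO to ask whether inhibition of EZH2 changed the transcripts of the complex. In NTG cells 0 of 10 members passed by limma, where 0.384% of the genes tested did so, and edgeR also called 0, with 0.475% of the genes tested called. At an unadjusted p under 0.05 there were 3 members by limma (MTF2, RBBP4 and SUZ12) and 2 by edgeR, where 17.1% and 17.2% of the genes tested had such a p. MTF2 was -0.33 ± 0.11 on the log2 scale (SE, adjusted p = 0.17), RBBP4 was -0.26 ± 0.08 (adjusted p = 0.17) and SUZ12 was -0.22 ± 0.09 (adjusted p = 0.25). EZH2 itself was -0.18 (95% confidence interval -0.43 to 0.07, adjusted p = 0.45) and EZH1 was -0.00 (-0.37 to 0.36). In siMCRS1 cells 0 of 10 members passed by limma and by edgeR, where 0.0908% and 0.126% of the genes tested did so, and 0 had an unadjusted p under 0.05 by either tool, where 9.12% and 9.23% of the genes tested did. The interaction of siMCRS1 with EPZ-6438 passed for 0 of 10 members and for 0% of the genes tested, by limma or edgeR, with 0 members at an unadjusted p under 0.05, where 2.35% (limma) and 2.4% (edgeR) of the genes tested had one. The DMSO group of NTG held 2 libraries. The intervals are not adjusted for the number of genes tested. Changes whose intervals exclude 0 could therefore still go uncalled, as for MTF2, RBBP4 and SUZ12.

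The other known partners of PRC2 gave the largest changes around the complex. PHF1, the Polycomb-like protein that was not among the 10 members (chr6:33410412-33416439), had 270, 264 and 297 normalized counts with NTG, 582, 685 and 738 with siINO80#1, and 699, 732 and 711 with siINO80#2. It rose by 1.26 ± 0.10 on the log2 scale with siINO80#1 (SE, adjusted p = 6.1e-06) and by 1.37 ± 0.10 with siINO80#2 (adjusted p = 1.7e-06). With siMCRS1 it rose by 1.66 ± 0.18 in DMSO (adjusted p = 7e-05) and by 1.69 ± 0.18 in EPZ-6438 (adjusted p = 3.8e-05). All siRNA libraries lay above all NTG libraries of their experiment, at least 582 against at most 297 in the first and at least 918 against at most 388 in the second. The annotated span of PHF1 overlaps that of CUTA (1086 normalized counts in NTG) on the opposite strand. Whether their exons overlap was not examined, and the split of reads between them is uncertain.

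LCOR, whose locus also encodes a PRC2-binding protein, rose by 0.98 ± 0.07 on the log2 scale with siINO80#1 (SE, adjusted p = 3.4e-06), by 1.18 ± 0.07 with siINO80#2 (adjusted p = 5e-07), and with siMCRS1 by 1.37 ± 0.25 in DMSO (adjusted p = 0.0013) and 1.60 ± 0.25 in EPZ-6438 (adjusted p = 0.00038). Its relative LCORL was -0.01 with siINO80#1 (adjusted p = 0.98) and fell by 0.52 ± 0.12 with siINO80#2 (adjusted p = 0.0043), and it overlaps NCAPG (1260 normalized counts in NTG) on the opposite strand. EPOP, an elongin-binding partner listed under its older symbol C17orf96, rose by 0.72 ± 0.18 with siINO80#1 (adjusted p = 0.0085), was -0.04 with siINO80#2 (adjusted p = 0.88) but 0.16 without siINO80#2 C (adjusted p = 0.38), and was 0.50 and 0.51 with siMCRS1 in DMSO and EPZ-6438 (adjusted p = 0.06 and 0.051). Of this list of 5 partners present in the tables, 4 could be tested, and EZHIP (as CXorf67) was below the filter. Of the 4 tested, 3 rose and 0 fell with siINO80#1, where 41.6% of all genes tested passed in either direction, and 2 rose and 1 fell with siINO80#2, where 55% did. With siMCRS1 2 rose and 0 fell in each treatment, where 47.7% and 53.7% of all genes passed. edgeR called 3 of the 4 with siMCRS1 in EPZ-6438, EPOP among them (0.51, adjusted p = 0.046), where 25.8% of all genes rose and 28.1% fell by edgeR. None passed for EPZ-6438 against DMSO by limma in NTG cells, where 0.384% of all genes tested did. By edgeR 0 had an unadjusted p under 0.05 there, where 17.2% of all genes tested did.

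Because MTF2, PHF19 and PHF1 occupy the same place in PRC2.1, their shares of the summed level per kilobase were described, with no test since they were set out after the values were seen. In NTG the shares were 37.2 ± 0.47% for MTF2, 32.5 ± 2.01% for PHF19 and 30.3 ± 2.01% for PHF1 (SD, n = 3). With siINO80#1 they were 33.2%, 23.8% and 43.0%, and with siINO80#2 31.3%, 16.6% and 52.0%. In DMSO with NTG they were 43.0%, 39.8% and 17.2% (n = 2), and with siMCRS1 47.4%, 20.5% and 32.1% (n = 3). In EPZ-6438 they were 41.5%, 38.3% and 20.2% with NTG (n = 3) and 47.3%, 18.8% and 33.9% with siMCRS1 (n = 2). With these assumed transcript lengths, on which the order of the shares depends, PHF19 held the smallest of the 3 shares in all 11 siRNA libraries. Among the 8 NTG libraries it was largest in DMSO NTG 1 (44.2%) and EPZ-6438 NTG 2 (40.7%), smallest in NTG C (30.2%) and in the middle in the others. A share also moves with the other genes of the sum: with siINO80#1 the share of PHF19 was lower than with NTG although PHF19 itself rose, and PHF1 rose by 1.26 on the log2 scale.

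**Figure D4:**
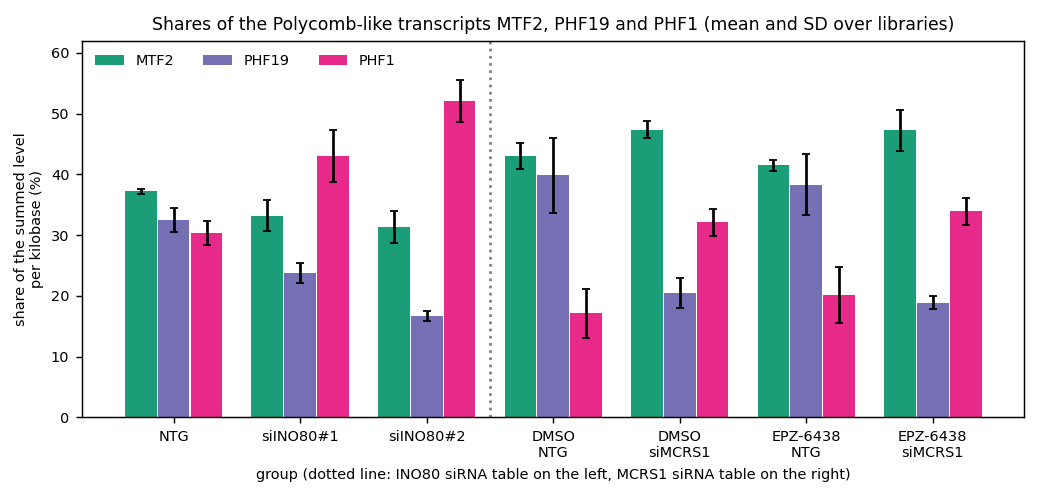
Shares (vertical axis, percent of the summed level per kilobase of the 3 genes) of MTF2, PHF19 and PHF1 in the 7 groups (horizontal axis), as means with SD over the 2 or 3 libraries of a group. The share of PHF1 is 52.0% with siINO80#2 against 30.3% with NTG, and 32.1% with siMCRS1 in DMSO against 17.2% with NTG.

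The word GCAGTAC came from an earlier analysis of these same data, which named it as one whose genes were higher in all siRNA groups than in NTG. A match in a gene that rose, such as PHF1, is therefore not an independent observation. The word was looked for in the 3′ untranslated regions of the annotated transcripts, and whether genes that carry it differ in level was not tested. It was found in 0 of the 10 members, in any coding transcript. It was found once in PHF1, at bases 185 to 191 after the stop codon of transcript ENST00000374512, in the stretch atggctctgtGCAGTACctggttgagt (word in capitals). In the longest 3′ untranslated region of each gene the word was present in 682 of the 12182 tested genes that have one, PHF1 among them, and LCOR and LCORL held 0 there. Some other coding transcript of LCOR held up to 2 such words and one of LCORL held 1.

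RBBP4 and RBBP7 also belong to CAF-1, which loads histones during replication, to the deacetylase complexes NuRD and SIN3, and to NURF and HAT1. Of 24 other subunits of those complexes, 6 rose and 4 fell with siINO80#1 and 8 rose and 8 fell with siINO80#2, where 41.6% and 55% of all genes tested passed. With siMCRS1 7 rose and 3 fell in DMSO and 10 rose and 2 fell in EPZ-6438, where 47.7% and 53.7% of all genes passed. Under equal totals these became 4 higher and 5 lower in DMSO, and 4 higher and 7 lower in EPZ-6438, where 48.9% and 53.2% of all genes passed. With all libraries the number that passed was thus near the background with siINO80#1 and in both siMCRS1 comparisons. Leaving siINO80#2 C out of the shared fit gave 15 of 24 with siINO80#1 (9 higher and 6 lower), where 49.2% of all genes passed. SIN3A, a scaffold of SIN3, rose by 0.48 on the log2 scale with siINO80#1 (adjusted p = 0.00057) and by 0.63 with siMCRS1 in DMSO (adjusted p = 0.00049). SMARCA1, an ATPase of NURF, fell by 0.85 with siINO80#2 (adjusted p = 1.6e-05). The list's median log2 fold change lay between 0.08 and 0.25 in these comparisons, and it was -0.07 with siMCRS1 in DMSO after equal totals. With EPZ-6438 in NTG cells 0 of 24 passed by limma, where 0.384% of all genes tested did. By edgeR 3 of the 24 had an unadjusted p under 0.05, where 17.2% of all genes tested did.

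Of 16 genes of proliferation, 0 rose and 10 fell with siINO80#1 and 0 rose and 16 fell with siINO80#2, beside 20.8% and 28.4% of all genes tested that were lower. With siMCRS1 0 rose and 11 fell in DMSO and 3 rose and 5 fell in EPZ-6438, beside 24.6% and 26.9% of all genes that were lower. Under equal totals 1 rose and 10 fell in EPZ-6438, beside 16% and 37.1% of all genes. RRM2, a subunit of ribonucleotide reductase, did not pass with siINO80#1 (0.07) or with siMCRS1 in DMSO (0.23). The median log2 fold change of the 16 genes was -0.44 with siINO80#1, -1.19 with siINO80#2, and -0.48 and -0.18 with siMCRS1 in DMSO and EPZ-6438. Without siINO80#2 C it was -1.04 with siINO80#2. MCM5, a replication helicase subunit, had log2 fold changes of -0.79 with siINO80#1 (adjusted p = 0.00048) and -2.02 with siINO80#2 (adjusted p = 5.6e-07), while EZH2 was -0.04 and -0.47. E2F1, a driver of S phase genes, fell by 0.88 with siINO80#1 (adjusted p = 0.00045) and by 1.34 with siMCRS1 in DMSO (adjusted p = 0.00074). EZH2 did not pass in these comparisons on the authors' scaling. With siMCRS1 in DMSO EZH2 passed after equal totals (-0.47, adjusted p = 0.01) and under quantile normalization (-0.31, adjusted p = 0.044). With siINO80#2, where EZH2 passed, E2F1 averaged 363 normalized counts against 954 with NTG. In EPZ-6438, where EZH2 did not pass on the authors' scaling, E2F1 averaged 739 with siMCRS1 against 1960 with NTG. Whether EZH2 follows E2F1 was not tested. The summed level of the 16 genes was 44739 to 54068 normalized counts in NTG, 35210 to 41836 with siINO80#1 and 19607 to 25866 with siINO80#2. The part of this difference in the subunits' changes was not tested.

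Markers of cell identity were described beside the subunits. Of 7 HepG2 markers, 0 rose and 1 fell with siINO80#1, and 0 rose and 4 fell with siINO80#2 (median log2 fold change -0.57), beside 20.8% and 28.4% of all genes that were lower. With siMCRS1 0 rose and 1 fell in DMSO, and 1 rose and 1 fell in EPZ-6438, where 47.7% and 53.7% of all genes passed. Under equal totals 0 rose and 2 fell in EPZ-6438, beside 16% and 37.1% of all genes. With siMCRS1 only 2 of the 7 had log2 fold changes below 0 in DMSO, and 3 in EPZ-6438. ALB averaged 178710 normalized counts with NTG and 265130 with siMCRS1 in EPZ-6438. HNF4A, a transcription factor of hepatocytes, fell in all 4 comparisons, by 0.45 and 1.02 on the log2 scale with siINO80#1 and siINO80#2 (limma, adjusted p = 0.00082 and 1.9e-06) and by 0.55 with siMCRS1 in each treatment (adjusted p = 0.016 and 0.015). APOA1 and TTR, secreted proteins of the liver, fell by 0.84 and 0.59 with siINO80#2 (adjusted p = 0.0034 and 0.0045). Of the 5 markers of other cell types, 0 passed with siINO80#1 by limma or edgeR, where 41.6% of all genes tested passed by limma. An unadjusted p under 0.05 was held by 2 of them by each tool, a looser threshold that at least 41.6% of all genes met by limma. With siINO80#2 PECAM1, of endothelial cells, rose by 0.49 (adjusted p = 0.0059) and COL1A1, a collagen of fibroblasts, fell by 0.63 (adjusted p = 0.049), and edgeR called only 1 of the 5 (PECAM1). By limma 55% of all genes tested passed with siINO80#2. Of the 4 tested in the MCRS1 experiment, COL1A1 rose from 247 to 623 normalized counts on average with siMCRS1 in DMSO (log2 fold change 1.25, adjusted p = 0.034), and from 92.2 to 626 in EPZ-6438 (2.91, adjusted p = 0.00027). CD68 fell from 1225 to 627 normalized counts in EPZ-6438 (-0.93, adjusted p = 0.0023). After equal totals the counts for these 4 markers in DMSO were 0 higher and 1 lower, beside 13.2% and 35.6% of all genes. The summed level of the 5 markers of other cell types was 1383 to 1573 normalized counts in NTG, 1285 to 1533 with siINO80#1 and 1011 to 1803 with siINO80#2. In the MCRS1 experiment it was 1454 to 1459 and 1425 to 1663 in DMSO with NTG and with siMCRS1, and 1129 to 1968 and 1319 to 1567 in EPZ-6438. The part of these markers in the subunits' changes was not tested.

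**Figure D5:**
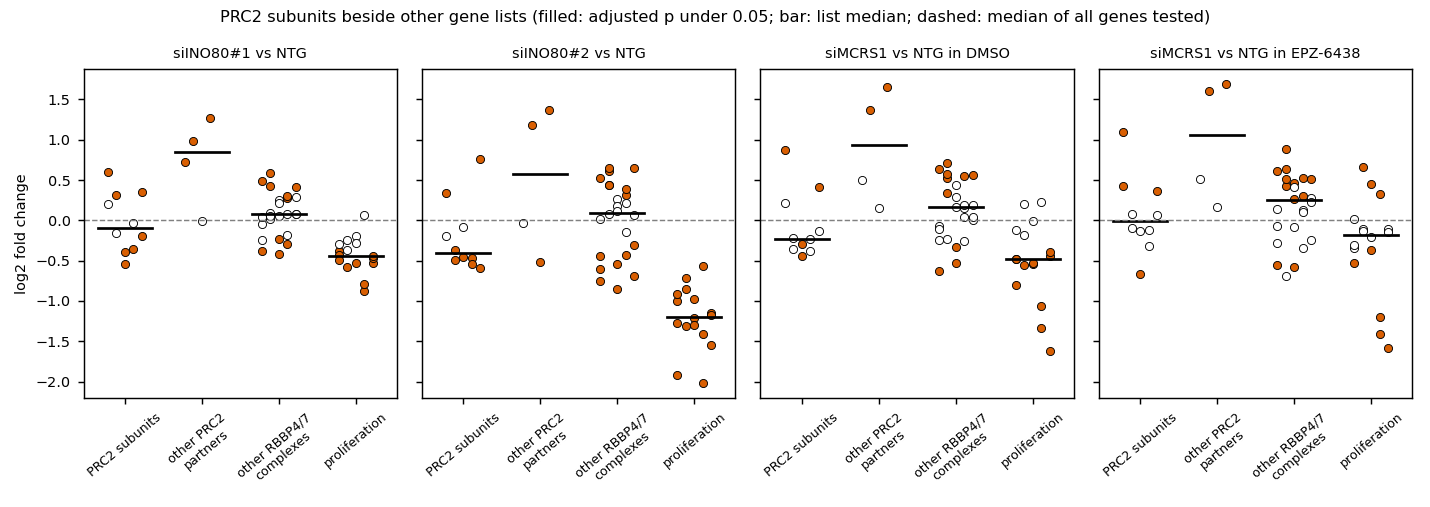
Log2 fold changes (vertical axis) of the 10 PRC2 subunits, 4 other PRC2 partners, 24 subunits of other complexes with RBBP4 and RBBP7, and 16 proliferation genes in 4 comparisons. Each point is a gene, filled for an adjusted p under 0.05, solid bars are list medians and the dashed line is the median of all genes tested. The proliferation genes have a median of -1.19 with siINO80#2, where the subunits have -0.41. Without siINO80#2 C, which is included in the figure, these medians are -1.04 and -0.28.

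The balance between paralogs was compared over libraries by exact two-sided permutation tests of the log2 ratio of normalized counts, 6 in all. In the MCRS1 experiment each test pooled libraries over the other factor and ignored it. The siMCRS1 libraries were thus 3 from DMSO and 2 from EPZ-6438, and the NTG libraries 2 and 3. The EZH1/EZH2 ratio was -2.16 ± 0.19 (SD, n = 5) with siMCRS1 and -1.79 ± 0.20 (n = 5) with NTG, a difference of -0.37 (exact permutation p = 0.0238, adjusted p = 0.143 over the 6 tests) that did not pass after adjustment. Within treatments the difference was -0.20 in DMSO, where the groups overlapped, and -0.55 in EPZ-6438, where they did not. The EZH1/EZH2 ratio differed by -0.17 between both INO80 siRNAs together and NTG (exact permutation p = 0.298, adjusted p = 0.571), with -0.36 for siINO80#1, whose libraries were separate from NTG, and 0.02 for siINO80#2, which overlapped NTG. The RBBP4/RBBP7 ratio had group means of 0.60 with NTG, 0.42 with siINO80#1 and 1.06 with siINO80#2, with library ranges of 0.58 to 0.64, 0.35 to 0.49 and 1.00 to 1.09 that did not overlap. Since the siRNAs lay on opposite sides of NTG, their pooled difference was 0.13 (exact permutation p = 0.476, adjusted p = 0.571). The remaining 3 tests had adjusted p of 0.548 to 0.651.

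The genes whose levels followed EZH2 and EZH1 most closely over the 19 libraries were found among 11420 genes by the root mean square difference of log2 levels, each centred on the control libraries of its experiment. For EZH2 they were ANP32A (0.07), WHSC1 (0.09) and SEPHS1 (0.09). For EZH1 they were FRA10AC1 (0.10), ZNF397 (0.14) and RP11-10O17.1 (0.14). These are descriptions over libraries that share their groups and depth.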

How the data were processed

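The 10 members and the gene lists were chosen with earlier results of these data known. For each experiment the authors deposited a single table of signal values (counts divided by 1 size factor a library) for 34825 symbols. The submitters' processing notes name kallisto, DESeq2 and GRCh38 without versions. These libraries are not described in the text of the paper. Every value was a whole multiple of 1 step per library (tolerance 0.001), which recovered whole counts. These are called reads here, and they are gene-level counts after quantification, not sequenced reads. The confidence intervals of fold changes come from the spread between libraries. Conditions came from the labels; columns of the MCRS1 table carry numbers that the labels lack and were mapped to groups only.

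Values were tested as log2(value + 1) with limma 3.58.1 in R 4.3.3 (1 fit per table with every group, trend on, genes averaging 10 or more) and adjusted by Benjamini-Hochberg over all genes tested; fold changes on this scale understate those of low genes. Replicate libraries differed beyond sampling noise (chi-square per degree of freedom 9.45 to 121). On simulated data for the INO80 experiment, 200 of 14034 genes were changed by 1 on the log2 scale, up or down, in siINO80#1 alone. There limma called 74% of them, and 7.5% of its calls were unchanged genes. In the real data of that experiment the members changed by less and a far larger share of genes passed. These rates therefore do not apply to the reported calls. edgeR 4.0.16 on recovered reads and a block of column numbers in the MCRS1 experiment were added after the values were seen. Lengths and untranslated regions were taken from GENCODE v44 (lifted to GRCh37), and positions and promoters from RefSeq on GRCh38.p14. Python 3.11.15, numpy 2.4.6, pandas 2.3.3 and matplotlib 3.10.9 were used. All 10 members are named, with INO80 and MCRS1, up to 3 called genes with the largest changes per list and comparison, and the 3 genes most like EZH1 and EZH2.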

Additional observations from a re-analysis of the deposited data

Results flagged for a closer look

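PHF19 was singled out because both INO80 siRNAs target the same gene but moved it in opposite directions, and the test of the difference itself passed. It was higher with siINO80#1 than with NTG in 3 of 3 libraries and lower with siINO80#2 in 3 of 3, and siINO80#2 against siINO80#1 gave a log2 fold change of -0.69 ± 0.10 (SE, limma, adjusted p = 0.0011). EZH2, SUZ12 and AEBP2 were also lower with siINO80#2 than with siINO80#1 (-0.43, -0.40 and -0.39), and RBBP4 and JARID2 were higher (0.45 and 0.41).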

How the results depend on the processing

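Of 70 log2 fold changes of the members, 28 passed the threshold, 18 of them under every alternative that was run, and 0 of the 28 changed sign. Over 1370 such values under alternatives, 1269 kept their direction and side of the threshold, 55 lost the call, 22 gained it and 24 changed sign. The alternatives were a pseudocount of 0.1 or 5, no filter or a mean of at least 50, equal totals, quantile normalization, a fit of the groups compared alone, no trend, each library left out, the replicate letter as a block, and edgeR. In the MCRS1 experiment they also included the 8 libraries with numbered columns, without and with the number as a block.

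Equal totals raised the members called with siMCRS1 in DMSO from 4 to 8 and turned the sign of AEBP2 in that comparison (-0.02), of SUZ12 (-0.17) and EED (-0.16) with siMCRS1 in EPZ-6438, and of EZH1 (0.02) and SUZ12 (0.01) with EPZ-6438 in NTG and in siMCRS1 cells. Quantile normalization gave -0.16 and 0.04 for SUZ12 with siMCRS1 in EPZ-6438 and with EPZ-6438 in siMCRS1 cells, and ended the call of EED with siINO80#2 (-0.39, adjusted p = 0.06), of EZH1 with siMCRS1 in DMSO (-0.22, adjusted p = 0.3) and in EPZ-6438 (-0.39, adjusted p = 0.065), and of JARID2 (0.27) and AEBP2 (0.36) with siMCRS1 in EPZ-6438. The call of SUZ12 with siINO80#1 was lost without the filter (adjusted p = 0.064) and without the trend (0.054), and that of EED with siINO80#2 without the trend (0.051). A fit of the groups compared alone ended the calls of JARID2 with siMCRS1 in EPZ-6438 (0.057) and of EZH1 in DMSO (0.082), which was also lost with a pseudocount of 5 (0.051), without the filter (0.078) and without the trend (0.062). edgeR gave 0.02 for EZH1 with EPZ-6438 in NTG cells. The causes were not tested.

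Leaving out a library gave 1 to 4 members called with siMCRS1 in DMSO (1 without DMSO NTG 1, 2 without DMSO siMCRS1 2) and 1 to 4 in EPZ-6438 (2 without EPZ-6438 siMCRS1 A, 1 without B), 5 to 7 with siINO80#1, 7 to 8 with siINO80#2 and 5 to 7 between the siRNAs. Where 1 group was left with 1 library, it was assumed to vary like the others. The sign turned within the ranges -0.10 to 0.02 for EZH2 with siINO80#1, -0.02 to 0.16, -0.05 to 0.23 and -0.20 to 0.02 for SUZ12, EED and PHF19 with siMCRS1 in EPZ-6438, -0.09 to 0.09, -0.32 to 0.03 and -0.27 to 0.04 for EZH1, RBBP7 and AEBP2 with EPZ-6438 in NTG cells, and -0.14 to 0.01, -0.10 to 0.08, -0.18 to 0.05 and -0.22 to 0.01 for EZH2, SUZ12, RBBP7 and MTF2 with EPZ-6438 in siMCRS1 cells. The EZH1/EZH2 ratio for EPZ-6438 ranged from -0.02 to 0.17.

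The labels of the INO80 experiment link libraries across groups only by a letter. Of 9 same-lettered pairs 4 correlated in their deviations above 0.1 (mean 0.10, range -0.08 to 0.26, against -0.05 for 18 other pairs), and 8 of 9 libraries correlated best with their own letter. With the replicate block the members called were 7, 8 and 6, as without it, and the ratio differences were -0.17 and 0.13. In the MCRS1 experiment 8 libraries have columns with a number that the labels lack. Of 7 pairs with the same number 6 correlated above 0.1 (mean 0.21, range -0.02 to 0.30, against -0.10 for 14 other pairs; the DMSO NTG libraries, being 2, deviate as mirror images), and 6 of the 8 libraries correlated best with their own number. With these numbers as a replicate block, chosen after seeing the data, 6 members passed with siMCRS1 in DMSO, with RBBP7 (-0.35, adjusted p = 0.0034) and AEBP2 (0.25, adjusted p = 0.038) added, where 55.9% of all genes passed, against 3 members in the same 8 libraries without the block, where EZH1 was lost (adjusted p = 0.054). PHF19 was -0.19 (adjusted p = 0.076). For EPZ-6438 in NTG cells the block gave 1 member, RBBP4 (-0.26, adjusted p = 0.049), where 8.11% of all genes passed, and turned EZH1 to 0.07. No paired analysis was possible for the comparisons with EPZ-6438 siMCRS1 because its columns carry letters.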
